A study of Mus musculus with 10 samples.

Results

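The clustered protocadherins are cell-surface adhesion proteins encoded by neighbouring gene clusters named alpha, beta and gamma. Every row of the deposited expression table whose name is Pcdha, Pcdhb, Pcdhga, Pcdhgb or Pcdhgc followed by a number was taken, whatever its level. This gave 56 genes of 55401 in the table, of which 12 belong to the alpha, 22 to the beta and 22 to the gamma cluster. The gamma members are of type A (12 genes), type B (7 genes) and type C (3 genes). Of the alpha rows, 2 carry the name Pcdha11 and are told apart here by their Ensembl identifiers. All 56 lie on the plus strand of mouse chromosome 18 (mm10), the alpha cluster from 36930184 to 37187661, the beta cluster from 37264938 to 37524479 and the gamma cluster from 37661793 to 37841873.

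The E14 line of mouse embryonic stem cells (the labels give embryo as the tissue) was profiled by poly(A) RNA sequencing in 10 libraries. E14 cells in which CRISPR/Cas9 editing had introduced the Y347A mutation of ANKRD11, a large nuclear regulator of transcription that the series' title ties to cohesin, gave 6 libraries, and wild-type E14 cells, labelled as without treatment, gave 4. The libraries fall into numbered sets of 2, mutant sets 1, 2 and 3 and wild-type sets 1 and 2. Whether a set stands for a clone or a culture is not given, and the design text speaks of 1 mutant cell line, so p-values measure only the spread between these sets, which may in part be technical. Below, levels are in TPM (reads per transcript length, scaled so that a library sums to 1000000). Means are given ± SD over set means (n = 3 mutant sets and n = 2 wild-type sets).

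In neurons, each alpha and gamma variable exon has its own promoter and is spliced to constant exons that its cluster shares, while each beta gene is a single exon. Which promoters a neuron uses depends on CTCF bound at promoters and enhancers, on the cohesin ring that brings them together, and on DNA methylation of the promoters. The proteins bind their own kind on neighbouring cells, and the combination that a neuron carries lets its branches recognise and avoid each other. The C-type isoforms follow rules of their own and are used by most neurons rather than by chance choice. In undifferentiated stem cells the clusters are mostly quiet.

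The gamma cluster was the only one of the 3 with a member reaching a mean of 0.1 TPM in these cells. No alpha value exceeded 0.18 TPM and no beta value exceeded 0.08 TPM in any library, against a highest gamma value of 21.21 TPM. Of the members, 11 were listed at 0 in every library, 5 of them alpha, 6 of them beta and 0 gamma. Above 0 in every library were 18 gamma members and, of the beta genes, Pcdhb22. Averaged over the 10 libraries, 21 gamma members reached 0.1 TPM, the exception being Pcdhga6, and 4 members reached 1 TPM, Pcdhgc4, Pcdhgc3, Pcdhga12 and Pcdhga1. Depth is unknown for TPM, so a value of 0 says only that a gene is listed at 0.

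**Figure D1:**
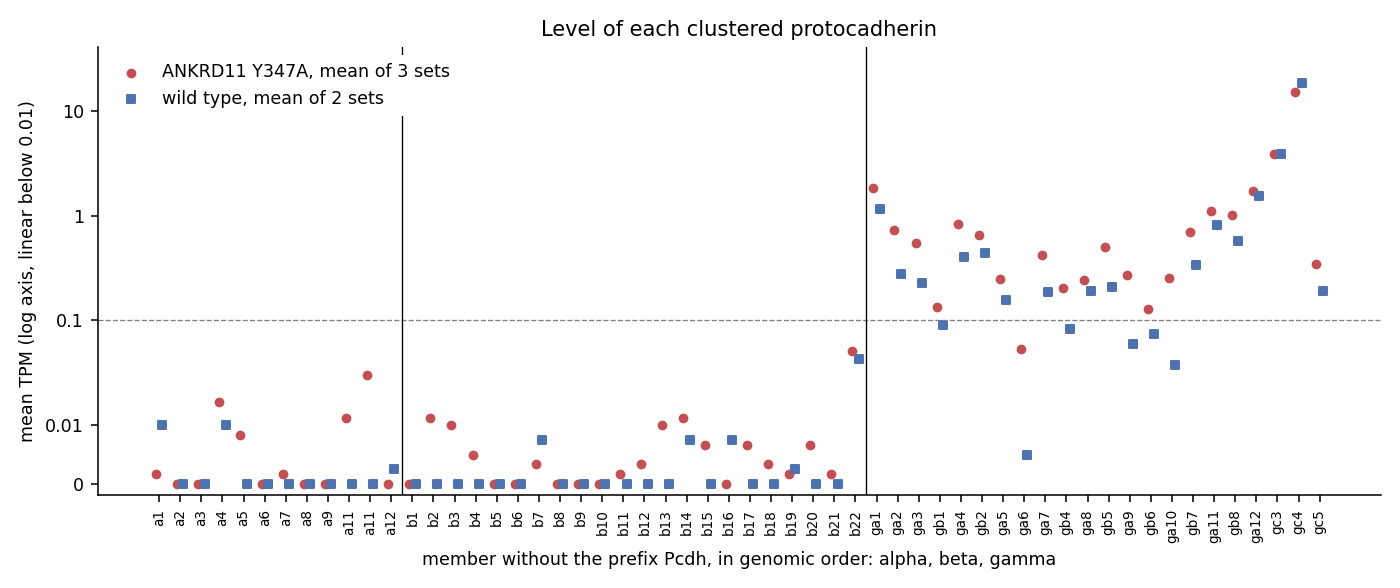
Mean TPM of each of the 56 members in genomic order, from alpha to gamma, in ANKRD11 Y347A cells (circles, mean of 3 sets) and wild-type cells (squares, mean of 2 sets), on a log axis that is linear below 0.01 TPM. The dashed line at 0.1 TPM is the level needed for testing, and only gamma members lie above it.

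Summed over its 12 members, the alpha cluster reached 0.04, 0.07, 0.02, 0.22, 0.06 and 0.01 TPM in the mutant libraries, against 0, 0.04, 0.01 and 0.04 TPM in the wild-type libraries. The groups overlap, and the highest sum comes from the second library of mutant set 2. That library owes 0.18 TPM to a single row, the Pcdha11 gene ENSMUSG00000102206.5, which was listed at 0 in the other 9 libraries. The other Pcdha11 row, ENSMUSG00000007440.10, was at 0.07 TPM in 1 mutant library and at 0 elsewhere. Pcdha4 was above 0 in 2 mutant libraries (0.04 and 0.06 TPM) and 1 wild-type library (0.04 TPM). Pcdha1, the outermost gene of the cluster, was at 0.01 TPM in 1 mutant library and at 0.04 TPM in 1 wild-type library, the largest fall in mean TPM among the alpha members. Averages over the sets were 0.07 ± 0.0444 TPM in mutant and 0.0225 ± 0.00354 TPM in wild-type cells. The C-type alpha genes Pcdhac1 and Pcdhac2, which the naming rule leaves out, were at 0 in all mutant libraries, against 0 for Pcdhac1 and at most 0.05 TPM for Pcdhac2 in wild-type libraries.

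The beta cluster, summed over 22 members, gave 0.11, 0.14, 0.21, 0.16, 0.08 and 0.11 TPM in the mutant libraries, against 0.05, 0.05, 0.08 and 0.09 TPM in the wild-type libraries. The ranges overlap, and the means were 0.135 ± 0.0458 TPM in mutant and 0.0675 ± 0.0247 TPM in wild-type cells. Pcdhb22, the beta gene nearest to the gamma cluster, supplied the largest part, with 0.04, 0.08, 0.06, 0.06, 0.03 and 0.04 TPM in mutant libraries, against 0.02, 0.03, 0.07 and 0.05 TPM in wild-type libraries. The others were sporadic. Pcdhb14 lay between 0 and 0.03 TPM in mutant and between 0 and 0.01 TPM in wild-type libraries. Pcdhb2 was above 0 in 1 mutant library only (0.07 TPM), the largest rise in mean TPM among the beta members. Pcdhb3 was at 0.02 TPM in 1 library of each mutant set and at 0 in the wild type. Pcdhb16 was at 0 in every mutant library and at 0.02 and 0.01 TPM in wild-type set 1, the largest fall of the beta members. At these levels the values step by 0.01 TPM, the rounding of the table, and no alpha or beta member entered the test.

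The gamma cluster as a whole was at a similar summed level in both genotypes, but the share of type C in that sum did not overlap between genotypes. The 22 members summed to 28.42 and 28.67 TPM in mutant set 1, 31.91 and 35.62 TPM in set 2 and 30.32 and 30.10 TPM in set 3, against 27.79 and 26.35 TPM in wild-type set 1 and 31.40 and 30.68 TPM in set 2. These ranges overlap, with means of 30.8 ± 2.67 TPM in mutant and 29.1 ± 2.81 TPM in wild-type cells, a ratio of 1.06. The A and B members together summed to 11.08, 9.24, 12.39, 10.99, 12.80 and 12.84 TPM in the mutant libraries, against 8.20, 6.78, 6.80 and 5.59 TPM in the wild-type libraries. Every mutant library lay above every wild-type library here, and the means were 11.6 ± 1.34 TPM in mutant and 6.84 ± 0.916 TPM in wild-type cells, a ratio of 1.69. A sum over chosen members carries no test of its own, and no p-value is given for it. In bulk RNA, more cells that express a gene and more RNA per cell cannot be told apart.

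**Figure D2:**
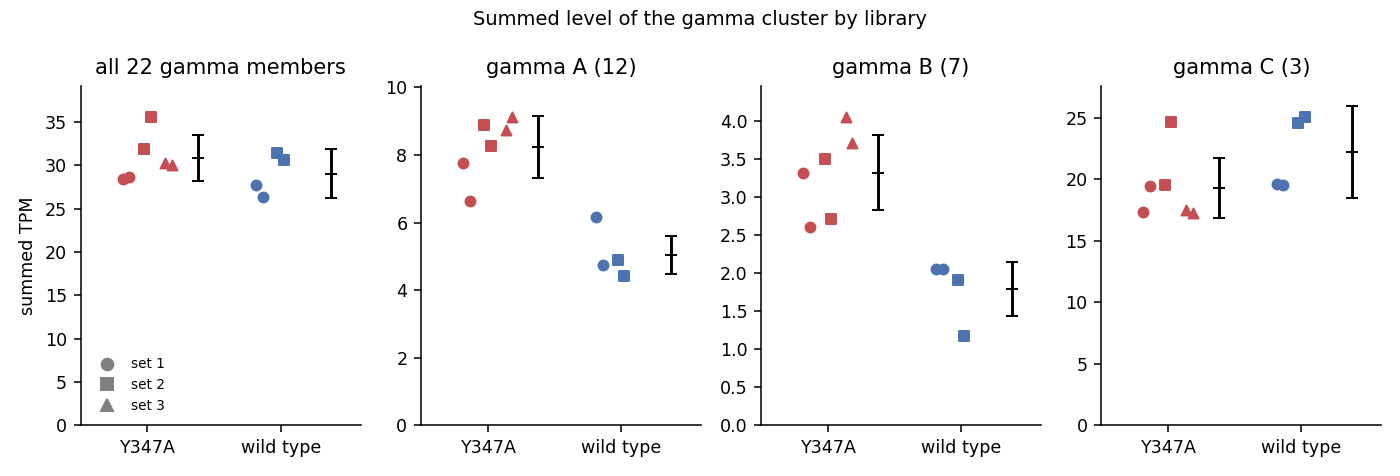
Summed TPM of all gamma members and of the A, B and C types, by library, with ANKRD11 Y347A to the left of wild type, the marker shape giving the set and the bar the mean ± SD of set means. The A and B panels show no overlap between genotypes (mutant A sums from 6.63 to 9.13 TPM and wild-type A sums from 4.41 to 6.15 TPM), while the whole cluster and type C overlap.

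Type A summed to 8.24 ± 0.918 TPM in mutant and 5.05 ± 0.559 TPM in wild-type cells (ratio 1.63), and type B to 3.32 ± 0.494 TPM in mutant and 1.80 ± 0.357 TPM in wild-type cells (ratio 1.85). Type C went the other way in its mean, 19.3 ± 2.47 TPM in mutant and 22.2 ± 3.72 TPM in wild-type cells (ratio 0.868), with overlapping libraries. As a share of all gamma TPM, type C held 57.3% to 69.1% in mutant libraries and 70.5% to 81.8% in wild-type libraries, which do not overlap. The A and B types held the remaining 30.9% to 42.7% in mutant and 18.2% to 29.5% in wild-type libraries. The wild-type sets also differed in this share, with A and B at 27.6% in set 1 and 19.9% in set 2, a gap about as wide as that between the mutant sets (35.6% in set 1, 34.8% in set 2 and 42.4% in set 3). Pcdhgc4 alone held 44.6% to 55.1% in mutant and 54.9% to 69.1% in wild-type libraries, which overlap slightly. Shares of 1 total are bound to each other, so a rise of types A and B by itself lowers the share of type C.

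**Figure D3:**
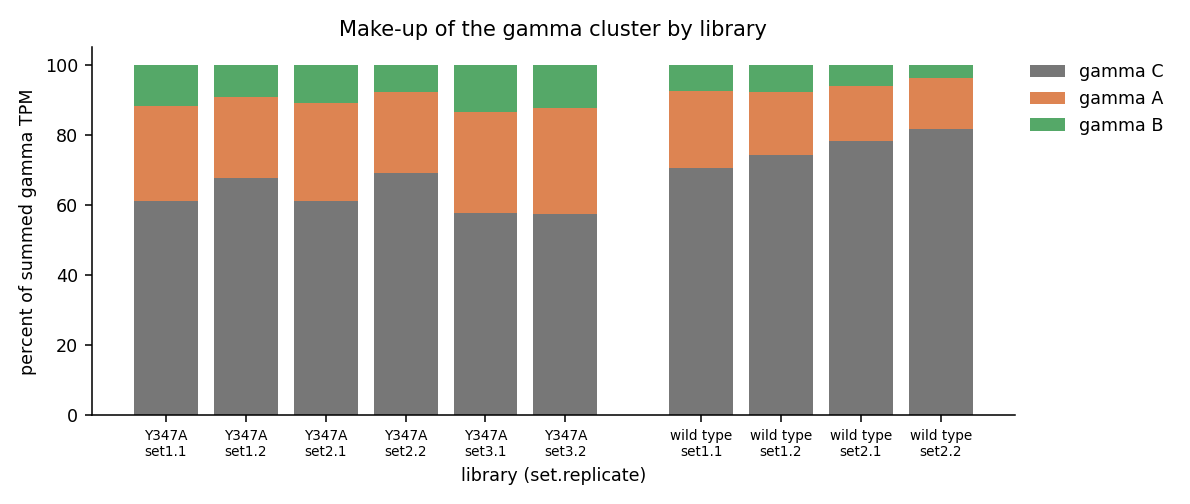
Percent of the summed gamma TPM held by types C, A and B in each library, mutant libraries to the left. Type C takes 57.3% to 69.1% in the 6 mutant libraries and 70.5% to 81.8% in the 4 wild-type libraries.

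Among the A-type genes, whose proteins act as adhesion molecules in the combinations that neurons display, Pcdhga1 and Pcdhga12 were the most abundant. Pcdhga1, at the 5′ end of the gamma cluster (37661793 to 37841873), was at 1.59, 1.41, 1.93, 1.77, 2.05 and 2.28 TPM in mutant libraries, against 1.75, 1.1, 0.73 and 1.04 TPM in wild-type libraries. The first library of wild-type set 1 lies within the mutant range and the other 3 below it. Its mean was 1.84 ± 0.333 TPM in mutant and 1.16 ± 0.382 TPM in wild-type cells, the largest rise in mean TPM of any gamma member. As log2(TPM + 1), a scale that understates differences at low levels, the difference was 0.41 ± 0.17 (SE), with a limma adjusted p of 0.176.

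Pcdhga12, at the 3′ end of the A and B array, was at 1.71, 1.28, 1.93, 2.09, 1.58 and 1.62 TPM in mutant libraries, against 1.62, 1.25, 1.77 and 1.49 TPM in wild-type libraries. Its groups overlap, and its ratio of means, 1.11, was the smallest of the A and B members. Pcdhga11 was at 1.2, 0.92, 1.1, 1.17, 1.15 and 1.03 TPM in mutant libraries, against 0.80, 0.90, 0.86 and 0.68 TPM in wild-type libraries, without overlap (log2 difference 0.21 ± 0.11, limma adjusted p = 0.267). Pcdhga4 spread widely, with 0.57, 0.75, 0.80, 0.65, 1.07 and 1.19 TPM in mutant libraries, against 0.73, 0.28, 0.51 and 0.10 TPM in wild-type libraries. The wild-type values span more than the gap between the means, 0.838 ± 0.255 TPM in mutant and 0.405 ± 0.141 TPM in wild-type cells.

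Among the B-type genes, Pcdhgb8 was highest, at 0.89, 0.50, 1.52, 0.80, 1.26 and 1.11 TPM in mutant libraries, against 0.53, 0.49, 0.65 and 0.60 TPM in wild-type libraries. Only the second library of mutant set 1 fell among the wild-type values. The GENCODE M21 annotation lists Pcdhgb8 as a polymorphic pseudogene and the other members as protein-coding. Pcdhgb2 was at 0.64, 0.58, 0.59, 0.69, 0.70 and 0.69 TPM in mutant libraries, against 0.66, 0.46, 0.35 and 0.28 TPM in wild-type libraries, and overlapped through the first library of wild-type set 1. Pcdhgb7 was at 0.88, 0.85, 0.60, 0.54, 0.80 and 0.48 TPM in mutant libraries, against 0.32, 0.51, 0.39 and 0.12 TPM in wild-type libraries. Here 1 mutant value, the lowest, lies below 1 wild-type value. Pcdhgb5 was at 0.43, 0.30, 0.35, 0.48, 0.75 and 0.71 TPM in mutant libraries, against 0.26, 0.27, 0.24 and 0.07 TPM in wild-type libraries, without overlap (log2 difference 0.31 ± 0.14, limma adjusted p = 0.191).

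The 3 C-type genes did not move alike. Pcdhgc4, which in mouse is needed for the survival of cortical interneurons, was the most abundant clustered protocadherin in every library. It was at 12.79, 15.64, 15.20, 19.64, 13.60 and 13.42 TPM in mutant libraries, against 15.26, 15.41, 20.73 and 21.21 TPM in wild-type libraries. The wild-type sets lie apart from each other by more than the mutant and wild-type means do, and the groups overlap. With means of 15.05 ± 2.08 TPM in mutant and 18.2 ± 3.98 TPM in wild-type cells it was the only gamma member with a lower mutant mean, and the difference did not pass the test (log2 difference -0.25 ± 0.16, 95% interval -0.65 to 0.14, limma adjusted p = 0.353).

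Pcdhgc3, an inhibitor of Wnt signalling that binds Axin1 in mouse, was at 4.05, 3.54, 4.07, 4.70, 3.61 and 3.36 TPM in mutant libraries, against 4.09, 3.97, 3.70 and 3.71 TPM in wild-type libraries. Its fitted difference was 0.00 ± 0.14 on the log2 scale, with a 95% interval from -0.34 to 0.34 (limma adjusted p = 0.997), so changes within that interval are not excluded. Pcdhgc5, a C-type isoform found at inhibitory synapses, was much lower, at 0.50, 0.25, 0.25, 0.29, 0.31 and 0.48 TPM in mutant libraries, against 0.24, 0.19, 0.17 and 0.17 TPM in wild-type libraries. All mutant values lie above all wild-type values (log2 difference 0.17 ± 0.10, limma adjusted p = 0.286).

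Single-gene tests called none of the members (limma on the means of 3 mutant and 2 wild-type sets, p adjusted by Benjamini-Hochberg over the 18363 genes that averaged 0.1 TPM or more, threshold 0.05). Over all tested genes that fit called 11.1%, 4.02% higher and 7.07% lower in the mutant. Most tested members average 0.1 to 1 TPM, a range set beside them after seeing the data. Of the 5566 tested genes in that range, the fit called 53 higher and 217 lower. At an unadjusted p under 0.05 in limma, 322 of the 5566 were higher. At an unadjusted p under 0.05, 7 members were higher, all of types A and B (Pcdhga2, Pcdhga3, Pcdhga4, Pcdhga7, Pcdhga9, Pcdhga10 and Pcdhgb7, named after their values were seen), and among all tested genes 11.8% were higher at that level. The smallest adjusted p belonged to Pcdhga2 and Pcdhga3, neighbours near the start of the gamma cluster. Pcdhga2 was at 0.61, 0.47, 1.0, 0.61, 1.0 and 0.67 TPM in mutant libraries, against 0.36, 0.16, 0.35 and 0.23 TPM in wild-type libraries (log2 difference 0.43 ± 0.12, limma adjusted p = 0.068). Pcdhga3 was at 0.52, 0.49, 0.52, 0.51, 0.66 and 0.58 TPM in mutant libraries, against 0.27, 0.32, 0.11 and 0.21 TPM in wild-type libraries (log2 difference 0.34 ± 0.11, limma adjusted p = 0.092).

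**Figure D4:**
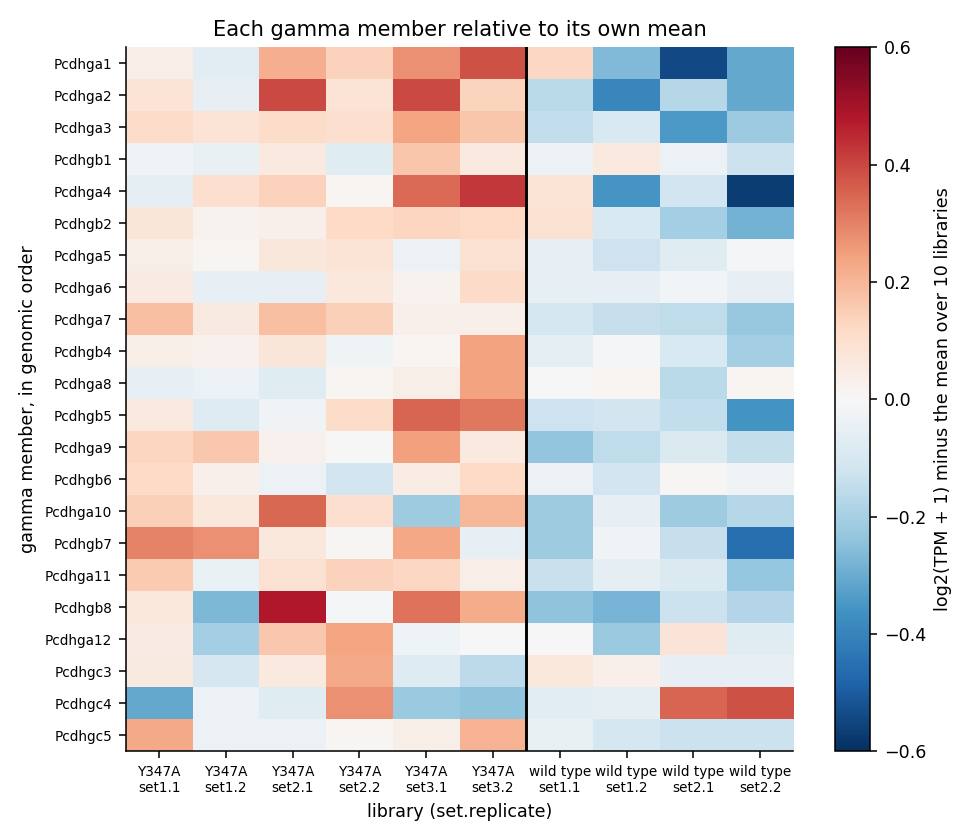
log2(TPM + 1) of each gamma member minus its own mean over the 10 libraries, members in genomic order down the page and libraries across it, mutant to the left of the black line. Most A and B members are above their mean (red) in mutant libraries and below it (blue) in wild-type libraries, while Pcdhgc4 is highest in wild-type set 2.

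The direction was shared by the A and B members but not by Pcdhgc4 and Pcdhgc3, the most abundant gamma members. The mutant mean TPM was higher for 21 of the 22 gamma members and lower for Pcdhgc4. The 21 include Pcdhgc3, whose means were nearly equal (ratio 1.005). The ratios of mutant over wild-type mean TPM among the 19 A and B members ran from 1.11 for Pcdhga12 to 10.7 for Pcdhga6, with a median of 2.06. Pcdhga6 is at the low end of the scale, with 0.07, 0, 0, 0.08, 0.05 and 0.12 TPM in mutant libraries, against 0, 0, 0.02 and 0 TPM in wild-type libraries, and its ratio is not well determined. Mutant libraries lay above wild-type libraries without overlap for 7 members (Pcdhga2, Pcdhga3, Pcdhga7, Pcdhga9, Pcdhga11, Pcdhgb5 and Pcdhgc5), and 0 members showed the opposite. Of all tested genes, 9.73% lay wholly above and 15.6% wholly below, and of tested genes with a mean of 0.1 to 1 TPM, a range chosen after seeing the data, 3.68% lay wholly above. A positive log2 difference was found for 20 of the 21 members that reached 0.1 TPM, against 46.2% of all tested genes. The median of those members was 0.21 on the log2(TPM + 1) scale, beside -0.03 for all tested genes. Members of this cluster share constant exons, a chromosome region and libraries, so they are not independent of each other, and these counts describe these libraries.

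**Figure D5:**
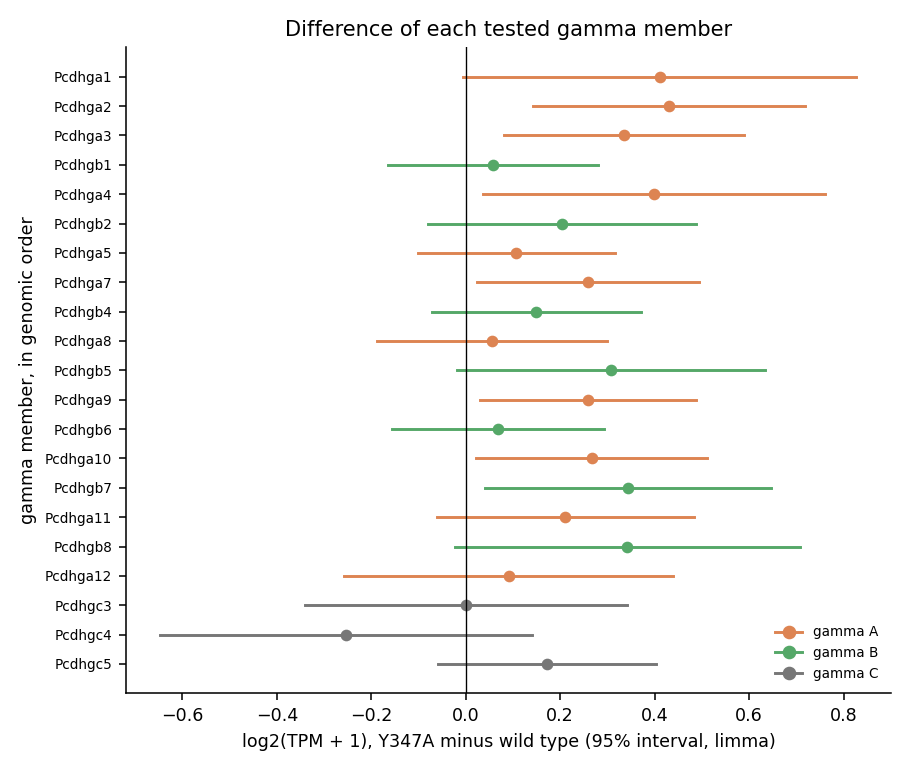
Difference in log2(TPM + 1), ANKRD11 Y347A minus wild type, with its 95% interval from limma on set means, for the 21 gamma members that reached a mean of 0.1 TPM, in genomic order. The points of types A and B all lie to the right of 0, with intervals that exclude 0 for 7 members before adjustment, and Pcdhgc4 lies to the left.

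Between the mutant sets themselves, no member passed the test. A limma F test over mutant sets 1, 2 and 3 called none of the 21 tested members, where it called 11.1% of all tested genes. At an unadjusted p under 0.05 it gave 1 member, and the smallest adjusted p was 0.153, for Pcdhgb5, which was highest in set 3. The calls against wild type depended on what counted as a replicate. With all 10 libraries taken as replicates, 7 members passed at an adjusted p under 0.05 (Pcdhga1, Pcdhga2, Pcdhga3, Pcdhga7, Pcdhga9, Pcdhgb5 and Pcdhgb7), while 12.6% of all tested genes were then called higher. With the set as a random block over the same libraries, Pcdhga3 alone passed. The share of all tested genes called with that block is not given here. The smallest adjusted p under these fits were 0.0052 and 0.022 (limma).

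How reads were assigned bears on single members. In GENCODE M21 the alpha members have 2860 exonic bases in common and the gamma members 2116, the constant exons, while the beta members have none. Of the windows of 100 bases in a gamma member's transcripts, 37.3% to 69.2% occur in no other gene's transcripts on the same strand. The constant exons do not tell members apart, and the variable exons do so only in part. Pcdhga4, the lowest at 37.3%, has 3157 exonic bases in common with other members and Pcdhgb1 has 3154, more than the constant exons hold. A shorter annotated transcript of Pcdhgc4, 2272 bases long, has 2116 of its bases in the constant exons that all gamma members share. The division of constant-exon reads among members in the authors' quantification is not given, and its part in the values above was not tested. The 3 annotated read-through genes that join alpha exons with gamma constant exons, Gm42416, Gm37013 and Gm37388, were listed at 0 in every library.

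Non-coding transcripts of the gamma region, a list added after seeing the data, held 10 genes between the beta and gamma clusters or within gamma, of which 7 reached 0.1 TPM. Of these, 1 rose and 0 fell, where 4.02% of all tested genes rose and 7.07% fell. Mutant libraries lay wholly above wild-type libraries for 2 of the 7, beside 9.73% of all tested genes. The gene that rose was Gm26672 (37746559 to 37768242, minus strand), at 1.07, 0.59, 0.97, 1.37, 0.77 and 1.13 TPM in mutant libraries, against 0.30, 0.47, 0.19 and 0.40 TPM in wild-type libraries, without overlap (log2 difference 0.56 ± 0.12, limma adjusted p = 0.040). The call was lost without any 1 of the 5 sets (adjusted p 0.0647 to 0.219), without the first library of mutant set 1 (0.112), of mutant set 2 (0.0609), of wild-type set 1 (0.0628) or of wild-type set 2 (0.0562), and without the second of mutant set 3 (0.0665). Gm26672 runs antisense across the starts of Pcdhga10, Pcdhgb7, Pcdhga11, Pcdhgb8 and Pcdhga12. Antisense transcripts cover 54.3% of the windows of Pcdhga10, 14.6% of Pcdhgb7, 27.6% of Pcdhga11, 0% of Pcdhgb8 and 3.44% of Pcdhga12. Outside the span of Gm26672, they cover 26.6% of the windows of Pcdhgc3, 8.54% of Pcdhga7, 6.85% of Pcdhga8 and 4.71% of Pcdhga1. Whether the counting used strand is not given. Without strand, reads from the overlapping stretches cannot be told apart, and 2.14% of the windows of Pcdhga10, 41.5% of Pcdhgb7 and 29.0% of Pcdhga11 occur in no other gene's transcripts on either strand. Pcdhga10 was at 0.28, 0.21, 0.47, 0.24, 0 and 0.33 TPM in mutant libraries, against 0, 0.12, 0 and 0.03 TPM in wild-type libraries. A sense transcript, 3222401L13Rik, ends 51 bases before the start of Pcdhga1 and was at 1.92, 1.5, 2.21, 1.76, 1.65 and 2.34 TPM in mutant libraries, against 1.04, 1.44, 0.80 and 1.08 TPM in wild-type libraries (log2 difference 0.47 ± 0.14, limma adjusted p = 0.076).

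Genes for the machinery that selects protocadherin promoters were all expressed. Of 15 genes for CTCF, cohesin and its regulators, 1 fell and 0 rose, and 4 had an unadjusted p under 0.05 in limma. All 4 were lower in the mutant, and 13 of the 15 had a negative log2 difference. Among all tested genes 7.07% fell at the adjusted threshold, and 3213 of 18363 were lower at such an unadjusted p. Mutant libraries lay wholly below wild-type libraries for 6 of the 15, beside 15.6% of all tested genes. The list summed to 662 to 764 TPM in mutant and 772 to 848 TPM in wild-type libraries. The list had a median log2 difference of -0.13 beside -0.03 for all tested genes. Pds5a, a cohesin regulator that works with the releaser WAPL, fell to 95.1 ± 5.37 TPM in mutant cells, against 123 ± 11.9 TPM in wild-type cells (log2 difference -0.36 ± 0.09, limma adjusted p = 0.046). Of 18 genes that silence the clusters or write and erase DNA methylation, 2 fell and 0 rose. An unadjusted p under 0.05 was found for 8 of them, 2 with higher and 6 with lower mutant values, beside 29.3% of all tested genes. Dnmt3a, a de novo DNA methyltransferase, fell to 3.68 ± 1.001 TPM in mutant cells, against 8.19 ± 1.04 TPM in wild-type cells (log2 difference -0.99 ± 0.21, adjusted p = 0.036). Dnmt3b (mean 46.3 TPM) differed by -0.06 on the log2 scale and Dnmt3l (mean 149 TPM) by 0.68 (limma adjusted p = 0.110). Rest, a repressor of neuronal genes outside neurons, fell to 37.1 ± 3.19 TPM in mutant cells, against 52.5 ± 1.09 TPM in wild-type cells (adjusted p = 0.025). Dnmt3a and Rest also differed between the mutant sets (limma F test, adjusted p 0.0229 and 0.0381), as did 11.1% of all tested genes. Smchd1, a repressor of the clusters in mouse that was named after its values were seen, was at 37.1 ± 5.52 TPM in mutant and 38.5 ± 2.06 TPM in wild-type cells. The calls of Dnmt3a and Rest were lost without mutant set 1, mutant set 3, wild-type set 1 or wild-type set 2 (adjusted p up to 0.246 and 0.198), and that of Dnmt3a also without the first library of mutant set 2 (0.0517) or the second of mutant set 3 (0.0512). Pds5a lost its call without any 1 of the 5 sets (0.0763 to 0.228) and without 7 of the 10 single libraries (0.0512 to 0.0939), the exceptions being the second library of mutant set 1, the second of mutant set 3 and the first of wild-type set 2, and after median-of-ratios (0.0509) or quantile (0.0585) scaling.

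Genes for proteins that bind protocadherins or act below them gave no call. Of 19 such genes 17 were tested and 0 passed, with 5 at an unadjusted p under 0.05 in limma, all lower in the mutant. Among all tested genes 3213 of 18363 were lower at that level. Of the 17, 12 had a negative and 5 a positive log2 difference. Mutant libraries lay wholly below wild-type libraries for 5, beside 15.6% of all tested genes. The list summed to 361 to 396 TPM in mutant and 410 to 437 TPM in wild-type libraries. The smallest p were those of 2 members of the WAVE actin regulatory complex. Wasf1 was at 10.5 ± 0.302 TPM in mutant and 13.8 ± 0.0495 TPM in wild-type cells (adjusted p = 0.057, and 0.0395 among genes of at least 1 TPM), and Abi2 was at 9.73 ± 0.757 TPM in mutant and 13.1 ± 0.265 TPM in wild-type cells (adjusted p = 0.066, and 0.0448 among genes of at least 1 TPM). Non-clustered protocadherins, which lie elsewhere in the genome or outside the clusters, were scarce, with 2 of 12 tested and 0 called (1 at an unadjusted p under 0.05 in limma). Pcdh19 was at 0.68, 0.46, 0.76, 0.62, 0.51 and 0.50 TPM in mutant libraries, against 2.78, 1.07, 0.82 and 0.90 TPM in wild-type libraries (adjusted p = 0.123). Pcdh1 was at 0.353 ± 0.0718 TPM in mutant and 0.523 ± 0.00354 TPM in wild-type cells.

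Of 10 classical cadherins and catenins, 8 were tested, 2 fell and 0 rose, where 7.07% of all tested genes fell and 4.02% rose. Cdh2, neuronal cadherin, fell to 0.235 ± 0.0150 TPM in mutant cells, against 1.005 TPM in both wild-type sets (log2 difference -0.70 ± 0.10, adjusted p = 0.015). Ctnnd1, the p120 catenin that stabilises cadherins at the membrane, fell to 41.6 ± 3.16 TPM in mutant cells, against 55.6 ± 0.612 TPM in wild-type cells (adjusted p = 0.032). Of 36 protein-coding genes within 500 kb of the clusters, 34 remain besides Pcdhac1 and Pcdhac2. Of these 30 were tested, and 2 rose and 3 fell, where 4.02% of all tested genes rose and 7.07% fell. Their median log2 difference was 0.02. Hbegf, a growth factor of the EGF family, fell to 4.70 ± 0.324 TPM in mutant cells, against 8.59 ± 0.810 TPM in wild-type cells (log2 difference -0.75 ± 0.13, adjusted p = 0.023). Gnpda1, an enzyme of amino sugar metabolism, rose to 154 ± 12.5 TPM in mutant cells, against 109 ± 13.5 TPM in wild-type cells (adjusted p = 0.033). Wdr55 (log2 difference -0.41 ± 0.10) and Pfdn1, a prefoldin subunit (-0.41 ± 0.07), fell as well. All 6 calls named here were lost without mutant set 1, mutant set 3, wild-type set 1 or wild-type set 2 (adjusted p 0.0641 to 0.235), that of Ctnnd1 also without the first library of mutant set 1 (0.0552). Wdr55 also lost its call without 8 of the 10 single libraries (0.0505 to 0.0679), the exceptions being the second library of mutant set 1 and the second of wild-type set 2, and after median-of-ratios (0.0584) or quantile (0.0565) scaling.

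The stem cell identity of the libraries was checked with 10 marker genes, all of which were expressed. Of these, Tdgf1 (log2 difference 0.30) and Esrrb (0.28) rose and Nanog (-0.68) fell, and the summed level of the list was 9855 to 11716 TPM in mutant and 10992 to 11716 TPM in wild-type libraries. For comparison with this and the lists below, 4.02% of all tested genes rose and 7.07% fell. Of the 10 markers, 4 were higher and 3 lower at an unadjusted p under 0.05 in limma, beside 29.3% of all tested genes. Mutant libraries lay wholly above wild-type libraries for 4 and wholly below for 4, beside 9.73% and 15.6% of all tested genes. Zfp42 (-0.50) and Utf1 (-0.55) were lower without passing the test. Nanog, Pou5f1, Zfp42, Utf1, Fgf4 and Dppa5a differed between the mutant sets (limma F test, adjusted p 0.000651 to 0.0426), beside 11.1% of tested genes. Without mutant set 1, mutant set 3 or either wild-type set none of the marker calls given here held (adjusted p 0.0564 to 0.237), and without mutant set 2 Tdgf1 (0.0633) and Esrrb (0.0803) lost theirs. Left out singly, the first library of mutant set 1 ended the calls of Tdgf1 (0.0501), Esrrb (0.114) and Cald1 (0.0506), the second of mutant set 2 those of Esrrb (0.0538) and Cald1 (0.0559), and the second of wild-type set 2 those of Tdgf1 (0.053) and Esrrb (0.0539). Esrrb also lost its call without the first library of mutant set 2 (0.0524), of mutant set 3 (0.0578) or of wild-type set 2 (0.0515), and without the second of wild-type set 1 (0.0561). Each library had between 12473 and 12812 genes of at least 1 TPM. Of 12 neuron and neural progenitor markers, 7 were tested. Sox1 and Stmn2 rose, the other 5 had lower mutant means without passing the test, and the median log2 difference was -0.09. The list summed to 189 to 208 TPM in mutant and 166 to 170 TPM in wild-type libraries, mostly from Stmn2 (173 ± 3.28 TPM in mutant and 140 ± 1.90 TPM in wild-type cells). Sox1, a factor of neural progenitors, was at 3.29 ± 0.422 TPM in mutant and 1.38 ± 0.0212 TPM in wild-type cells. The neuron marker Dcx was listed at 0 in every library, and Tubb3 (17.4 ± 3.08 TPM in mutant and 18.2 ± 0.230 TPM in wild-type cells) overlapped between genotypes. Elavl4, a neuronal RNA-binding protein, was at 0.248 ± 0.0535 TPM in mutant and 0.520 ± 0.0212 TPM in wild-type cells (adjusted p = 0.105). Sox1 and Stmn2 were thus higher in the mutant, as the A and B gamma sums were, and the rest of the list was not. The part of these markers in those sums was not tested. Of 9 feeder fibroblast markers, 4 were tested and 5 averaged under 0.1 TPM. Cald1 fell (40.1 ± 3.91 TPM in mutant and 56.4 ± 0.993 TPM in wild-type cells). Thy1 had a lower mutant value without passing the test (log2 difference -0.62, limma adjusted p = 0.0702). Col1a1 (0.04) and Pdgfra (0.03) had slightly higher ones. The list summed to 36.9 to 48.4 TPM in mutant and 54.7 to 63.3 TPM in wild-type libraries, mostly from Cald1. Of 7 primitive endoderm markers, 4 were tested and 0 called at an adjusted p under 0.05 or an unadjusted p under 0.05 in limma, with list sums of 0.67 to 1.59 TPM in mutant and 0.63 to 1.65 TPM in wild-type libraries. Gata4 was at 0.400 ± 0.005 TPM in mutant and 0.253 ± 0.0601 TPM in wild-type cells, and Dab2 at 0.133 ± 0.124 TPM in mutant and 0.280 ± 0.0990 TPM in wild-type cells.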

How the data were processed

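RNA-seq libraries from 6 ANKRD11 Y347A and 4 wild-type E14 samples were analysed. The deposited table holds TPM values made by the authors, to 2 decimals and summing to 1000000 per library, so depth and counting error are unknown. Trim Galore, STAR, RSEM, DESeq2 and the build mm10 are named, per the submitters' processing notes, without versions. The sources used here give neither the strand mode nor the annotation. All 10 sample columns were matched by name, and 0 were left out.

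The 2 libraries of each set were averaged on the log2(TPM + 1) scale. Genes averaging 0.1 TPM or more (18363) were compared between 3 mutant and 2 wild-type sets in limma 3.58.1 (R 4.3.3; two-sided, eBayes with a variance trend, residual df 3, prior df 3.49). The p were adjusted by Benjamini-Hochberg over these genes, with a threshold of 0.05. Sums per cluster carry no test. The fit was tested on simulated data. Positions come from GENCODE M21 (GRCm38, the assembly that mm10 denotes), matching 55141 identifiers without their version, all 56 members among them.

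The members and gene lists were chosen with earlier results of these data known. Named genes were the 4 highest members of each cluster or gamma type, members of at least 1 TPM, the largest rise and fall in mean TPM per cluster, and per list up to 4 called genes or the 2 smallest p. Other names were added after values were seen. Labels number replicates within sets. Set means with the same number correlated at -0.129 (set 1) and -0.0697 (set 2), and the replicate differences at -0.0527 to 0.074 over 10 pairs of sets, so the numbers were not taken as pairs. Alternatives were a pseudocount of 0.1, a filter of 1 TPM or none, median-of-ratios and quantile scaling, single libraries with or without blocks, no variance trend, sums without the highest member or with C-type alpha genes, and leaving out each set or library. Figures were drawn with matplotlib 3.10.9 in Python 3.11.15.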

Additional observations from a re-analysis of the deposited data

Results flagged for a closer look

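Of 102 groups of 4 or 6 libraries examined, 10 had a library far from the rest, and chance flags about 1 in 20. In the mutant, the second library of set 2 stood apart in the alpha sum (0.22 TPM, next 0.07 TPM) and in the gamma C sum (24.63 TPM, next 19.52 TPM). The second library of mutant set 3 was high for Pcdhga8 (0.44 TPM, next 0.25 TPM) and Pcdhgb4 (0.36 TPM, next 0.21 TPM). In the wild type, the second library of set 2 was low in the gamma B sum (1.18 TPM, next 1.91 TPM) and for Pcdhgb5 (0.07 TPM, next 0.24 TPM), and the first library of set 2 was low for Pcdhga8 (0.09 TPM, next 0.22 TPM). Of the further genes, Dab2 was high in the first library of mutant set 2 (0.42 TPM), Pds5a low in the second library of mutant set 1 (82.48 TPM) and Pcdh19 high in the first library of wild-type set 1 (2.78 TPM).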

How the results depend on the processing

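Among single members, the choice of replicate mattered. No member was called on set means in limma (7 had an unadjusted p under 0.05), against 7 with 10 libraries as replicates. There were 1 with the set as a random block and 5 with the replicate number as a replicate block, where the numbers do not pair the samples. Among all tested genes, 4.02% were called higher on set means and 12.6% with 10 libraries as replicates. Shares for the block fits are not given here, so these counts are not read as particular to the members. Blocking on the number of sets 1 and 2 left 0. Every other alternative run, among them other pseudocounts, filters and scalings and each set or library left out, gave 0 called members. Positive A and B members numbered 2 of 2 tested at a filter of 1 TPM, 19 of 19 with no filter, and 17 or 18 of 18 under the others. Pcdhgc3, near 0, turned negative without mutant set 2 (-0.070), wild-type set 2 (-0.047) or single libraries (-0.024, -0.027, -0.012 and -0.0074), with a highest value of 0.061 when mutant set 3 was left out.

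The lists around the clusters, leaving out the cell type markers and the non-coding genes, gave 2 higher and 8 lower genes on set means. They gave 0 and 3 with no filter, 0 and 4 without a variance trend, and 0 and 0 with the set number as a replicate block. With 10 libraries as replicates they gave 8 and 26, with the set as a random block 4 and 22, and with the replicate block 8 and 25. Among all tested genes, 4.02% were called higher on set means and 12.6% with 10 libraries as replicates. Shares for the block fits are not given here, so these counts are not read as particular to the lists. Leaving out sets or libraries in turn gave 0 to 2 higher and 0 to 8 lower genes, and leaving out a set leaves fewer set means to estimate the spread. Among the named genes of all lists, markers and non-coding genes included, some lost their calls. With no filter they were Dnmt3a, Rest, Pds5a, Sox1, Wdr55, Ctnnd1, Cald1, Gnpda1, Esrrb, Tdgf1 and Gm26672 (limma adjusted p 0.0535 to 0.0868). Without a variance trend they were Pds5a, Wdr55, Ctnnd1, Pfdn1, Stmn2, Cald1, Gnpda1, Esrrb and Tdgf1 (0.0515 to 0.11). The cause was not tested.

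The summed gamma difference, 1.785 TPM on all members, was 4.89 TPM without Pcdhgc4, and that of type C, -2.93 TPM, was 0.175 TPM without it. With sets or libraries left out, the differences ran from -0.200 to 3.77 TPM for gamma, 2.80 to 3.71 TPM for type A, 1.24 to 1.78 TPM for type B and -5.56 to -0.297 TPM for type C. For alpha they ran from 0.0142 to 0.0808 TPM and for beta from 0.0425 to 0.0875 TPM. Depth is unknown, so how far counting error limits the low values cannot be given.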
